A study of Homo sapiens with 15 samples.

Results

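The genes described here are 8 integrin subunits that are typical of epithelial cells or are measured beside them: ITGA2, ITGA3, ITGA6, ITGA7, ITGA9, ITGB4, ITGB6 and ITGB8. They were chosen by symbol, as the rows of the count table that carry those names, and they make up 8 of the 730 endogenous genes of a NanoString panel of cancer pathways. HCT116 cells, an established human colorectal carcinoma line, were left untreated or exposed to a drug for 24 h, with 3 samples in each of 5 groups and 15 samples in all. The treatments were 40 µM thymoquinone (TQ, a quinone of black seed), 15 µM 5-fluorouracil (5-FU, a pyrimidine analog used against colorectal cancer), Combi with 35 µM TQ plus 35 µM 5-FU, and 35 µM SARB, a hybrid in which TQ is joined to 5-FU. The design text calls the samples of a group biological replicates and says nothing further on how they were made, so p-values measure the spread between these samples of a single cell line. Doses match only between SARB and Combi.

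Integrins are cell surface receptors built from an alpha and a beta chain, and the pairing sets which matrix protein is bound. ITGA3, ITGA6 and ITGA7 are alpha chains of laminin receptors. ITGB4 pairs with ITGA6 in hemidesmosomes, the junctions that fix the basal side of epithelial cells to the basement membrane. ITGA2 forms a collagen receptor and ITGA9 a receptor for tenascin and osteopontin, both with the beta1 chain. ITGB6 and ITGB8 pair with the alpha v chain and release active TGF-beta from its latent complex. In intestinal epithelium these receptors anchor cells, and ITGA7 is better known from muscle.

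Promoter windows are shown for ITGA2 and ITGA6, which were higher than control after several treatments, and for ITGB8, which was not higher after any. RefSeq windows of GRCh38.p14, from 250 bases before to 50 bases after a gene's start, were at hand for 4 of the 8 genes. ITGA6 had windows at both of its listed starts, and the more downstream window is printed. Capitals mark GC boxes (GGGCGG on either strand, overlaps counted), and no match of any other motif searched lay in these 3 windows.
ITGA2, GRCh38.p14, chr5:52989102-52989401, plus strand: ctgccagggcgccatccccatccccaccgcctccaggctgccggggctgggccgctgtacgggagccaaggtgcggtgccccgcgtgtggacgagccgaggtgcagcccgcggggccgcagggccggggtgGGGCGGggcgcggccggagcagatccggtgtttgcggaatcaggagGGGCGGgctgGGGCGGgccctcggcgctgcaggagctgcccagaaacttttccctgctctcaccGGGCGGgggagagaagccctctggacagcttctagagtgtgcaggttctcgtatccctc
ITGA6, GRCh38.p14, chr2:172427336-172427635, plus strand: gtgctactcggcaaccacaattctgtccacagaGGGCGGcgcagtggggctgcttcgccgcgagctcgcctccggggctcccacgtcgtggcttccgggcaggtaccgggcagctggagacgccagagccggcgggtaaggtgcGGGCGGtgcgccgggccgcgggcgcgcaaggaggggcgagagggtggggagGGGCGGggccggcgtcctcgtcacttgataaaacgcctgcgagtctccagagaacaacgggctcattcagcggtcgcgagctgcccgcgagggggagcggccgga
ITGB8, GRCh38.p14, chr7:20330650-20330949, plus strand: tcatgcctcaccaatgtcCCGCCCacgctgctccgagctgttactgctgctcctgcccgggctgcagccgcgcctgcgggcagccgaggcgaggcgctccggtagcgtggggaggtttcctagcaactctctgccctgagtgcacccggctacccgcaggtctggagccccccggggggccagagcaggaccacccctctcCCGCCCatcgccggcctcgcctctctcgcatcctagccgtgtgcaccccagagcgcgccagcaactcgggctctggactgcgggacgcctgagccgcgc
The GC box was found 4 times in the ITGA2 window, 3 times in that of ITGA6 and 2 times in that of ITGB8. Of all 35116 windows, 45.0% held at least 1 GC box. The other motifs searched were the AP-1 site (TGANTCA, in 7.71% of windows), the E-box (CACGTG, in 7.26%) and the p53 half-site (in 6.63%). The upstream ITGA6 window held 1 GC box and 1 E-box. The ITGB6 window held none of the motifs, and its bases were 31.7% G or C against 72.7% in the ITGA2 window. A match describes letters only, and binding was not measured.

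The assay counts color-coded probes bound to RNA without amplification, and endogenous counts summed to between 135017 and 607782 per sample. Values are given as scaled counts, which are raw counts multiplied so that the geometric mean of 40 housekeeping genes was equal in all samples. ITGA2, ITGA3, ITGA6, ITGB4 and ITGB8 exceeded background, set per sample at the mean of 8 negative probes plus 2 SD, in 15 of 15 samples. ITGB6 did so in 13, ITGA7 in 8 and ITGA9 in 3. All 5 epithelial markers on the panel were above background in every sample, while 4 of 5 fibroblast markers were at or below it in every sample, and no muscle marker of the list was on the panel. Of 5 immune markers 1 was above background in every sample. The summed epithelial markers reached 3460 to 4264 scaled counts in control, 4385 to 4436 under TQ and 9744 to 12500 under the other treatments, and of the 5 markers SFN (2.83, 2.60 and 2.65 on the log2 scale) and EPHA2 (2.08, 1.83 and 1.93) were called higher under each of 5-FU, Combi and SARB. CDH1, the epithelial cadherin, was lower under TQ (-1.23) and higher under Combi (0.81), and MET and PROM1 were called in no treatment. SFN was also higher under TQ (0.81). The part of these markers in the integrin values was not tested. The samples ran on 3 cartridges, the nCounter cassettes, and their layout was uneven. Cartridge 1 held all TQ, 5-FU and SARB samples with control replicate 1. Cartridge 2 held the other control samples and Combi replicate 1, and the remaining Combi samples had cartridge 3 to themselves. Ratios to control within a cartridge therefore rest on control replicate 1 alone for TQ, 5-FU and SARB. For Combi they rest on Combi replicate 1 alone. A gene is called higher or lower where edgeR's quasi-likelihood test gave an adjusted p (Benjamini-Hochberg, over all 730 genes) no higher than 0.05 and the change was at least 1.5-fold. In RNA pooled from many cells, fewer cells with a transcript and less of it per cell cannot be told apart.

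The laminin receptor chain ITGA3 rose under 5-FU, Combi and SARB. Its scaled counts in replicates 1, 2 and 3 were 1105, 1075 and 1662 in control, 2872, 2939 and 2812 under 5-FU, and 2881, 2952 and 3090 under Combi. They were 2403, 2124 and 1972 under SARB and 791, 845 and 863 under TQ. Every 5-FU, Combi and SARB sample lay above every control sample, and every TQ sample lay below. The log2 fold change was 1.17 ± 0.13 (SE, n = 3 per group) under 5-FU, 1.22 ± 0.13 under Combi and 0.76 ± 0.13 under SARB, with adjusted p of 6.70e-07, 2.81e-07 and 0.000104 in edgeR. Within a cartridge the log2 ratio of ITGA3 to control was 1.38 for 5-FU, 1.07 for Combi and 0.97 for SARB. Under TQ ITGA3 was called lower, at 0.651 of control (edgeR adjusted p = 0.00192), a call that was lost after TMM (-0.14 on the log2 scale), a scaling to the bulk of the endogenous genes, and in DESeq2, with cartridge as a block and without control replicate 3.

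ITGA6 rose under the same 3 treatments, in another order. Its scaled counts were 1200, 859 and 992 in control, 1812, 1913 and 2256 under 5-FU, 1395, 1836 and 1651 under Combi, and 1898, 1964 and 1814 under SARB. No sample of these treatments overlapped control, and the 5-FU and SARB samples lay close together. The edgeR log2 fold changes were 0.97 ± 0.13 (SE, adjusted p = 4.65e-06) for 5-FU, 0.90 ± 0.13 (1.23e-05) for SARB and 0.68 ± 0.13 (0.000241) for Combi. The ratio within a cartridge was smaller, at 0.73, 0.66 and 0.59 on the log2 scale. Under TQ the 3 samples (864, 913 and 931) overlapped control, with a log2 fold change of -0.17 and a 95% interval of -0.44 to 0.10. That value turned to 0.28 under TMM normalization. Without control replicate 2 the Combi value of ITGA6 was 0.57, just under the fold limit.

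ITGB4, the hemidesmosomal partner of ITGA6, rose under 5-FU and Combi. Its scaled counts were 685, 707 and 1321 in control, 2097, 1994 and 1954 under 5-FU, 2201, 2643 and 2581 under Combi, 1240, 995 and 1086 under SARB, and 485, 492 and 426 under TQ. The 5-FU and Combi samples all lay above control, the TQ samples all lay below, and the SARB samples fell inside the control range. The edgeR log2 fold change was 1.16 ± 0.18 (SE, adjusted p = 2.84e-05) under 5-FU and 1.45 ± 0.18 (1.39e-06) under Combi. Under SARB it was 0.29 ± 0.17 (adjusted p = 0.188, 95% interval -0.07 to 0.66). The ratio of ITGB4 to control within a cartridge was 1.56 for 5-FU, 1.12 for Combi and 0.69 for SARB on the log2 scale. Control replicate 3 was the highest control for ITGB4, and without it the SARB value was 0.67 and called (edgeR adjusted p = 0.000387).

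The collagen receptor chain ITGA2 was highest under Combi. Its scaled counts were 633, 835 and 735 under Combi, 386, 388 and 442 under 5-FU, 360, 399 and 379 under SARB, and 152, 163 and 152 under TQ. The control samples spread from 159 to 407, at 221, 159 and 407, so that only the Combi samples lay clear of control. The edgeR log2 fold change was 1.49 ± 0.21 (SE, adjusted p = 8.93e-06) under Combi and 0.63 ± 0.21 (0.0297) under 5-FU. ITGA2 under SARB had a log2 fold change of 0.54 ± 0.21 (adjusted p = 0.0489), which missed the fold limit of 1.5 at 1.45. Without control replicate 3 the SARB value was 1.00 and called. Within a cartridge the log2 ratio of ITGA2 to control was 1.16 for Combi, 0.87 for 5-FU and 0.78 for SARB. The ITGA2 call under 5-FU was lost without control replicate 1 (0.53), control replicate 2 (0.37), 5-FU replicate 2 (0.66) or 5-FU replicate 3 (0.57).

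ITGB8, a TGF-beta-activating beta chain, did not share the rise. Its scaled counts were 294, 352 and 336 in control, 299, 310 and 284 under 5-FU, 207, 262 and 236 under Combi, 166, 212 and 181 under SARB, and 201, 219 and 201 under TQ. The SARB, Combi and TQ samples lay below every control sample, and the 5-FU samples overlapped control. ITGB8 was called lower under SARB, at -0.82 ± 0.13 on the log2 scale (SE, edgeR adjusted p = 5.37e-05), and under TQ, at -0.65 ± 0.14 (0.00138). Under Combi its log2 fold change of -0.47 ± 0.13 (adjusted p = 0.00842) missed the fold limit. Within a cartridge the log2 ratio of ITGB8 to control was -0.66 for SARB, -0.51 for TQ and -0.74 for Combi. Under TMM and DESeq2 ITGB8 was called in none of these treatments, with values under SARB of -0.47 and -0.46.

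**Figure D1:**
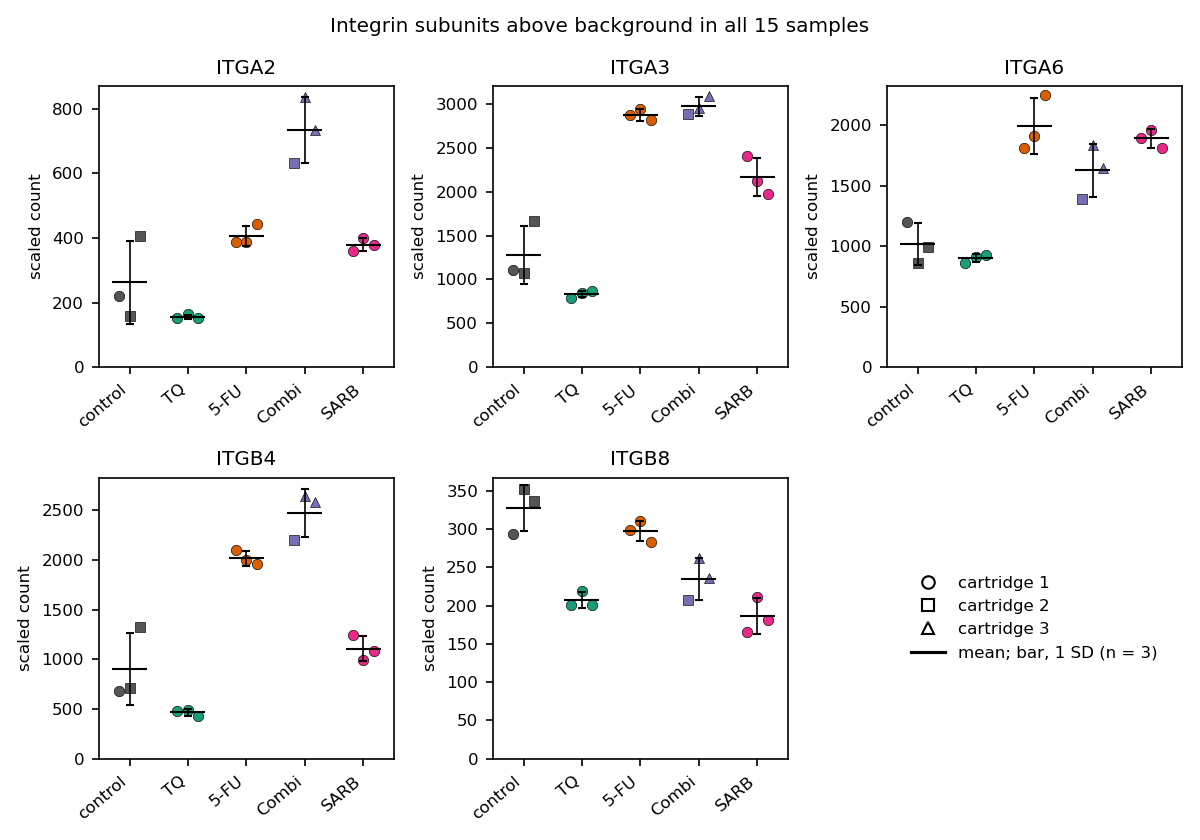
Scaled counts of the 5 integrin subunits above background in all 15 samples, by group, with the mean (line) and SD (bar, n = 3) and the cartridge as marker shape. ITGA3 and ITGA6 stand above control after 5-FU, Combi and SARB, ITGA2 spreads from 159 to 407 in control, and ITGB8 stands no higher than control after any treatment.

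ITGA7, ITGB6 and ITGA9 were counted near the negative probes. ITGA7, the muscle laminin receptor chain, had scaled counts of 43.2, 39.0 and 50.9 under Combi, each above that sample's background, and 12.1, 46.9 and 28.6 in control. It had 12.2, 7.4 and 6.8 under TQ, 22.0, 9.3 and 20.8 under 5-FU, and 18.3, 9.4 and 11.8 under SARB. The highest TQ sample was level with control replicate 1, so TQ and control overlapped, and the 3 Combi samples lay above all TQ, 5-FU and SARB samples. ITGA7 was called lower under TQ, at a log2 fold change of -1.81 ± 0.51 (SE, edgeR adjusted p = 0.0123). The scaled mean of the negative probes itself was 11.7 to 20.6 in control and 3.55 to 7.65 under TQ, and its part in the ITGA7 value was not tested. With background subtracted, limma gave -1.41 (adjusted p = 0.333), and the call was also lost without control replicate 2 or TQ replicate 2.

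ITGB6, the epithelial TGF-beta-activating chain, had scaled counts from 6.2 in a TQ sample to 54.4 in a control sample. Its edgeR log2 fold changes ran from -1.03 under TQ to -0.37 under Combi, with SE of 0.58 to 0.64, and none was called. ITGA9 had scaled counts between 1.2 and 21.8 and fold changes from -1.35 under TQ to -0.30 under Combi, and none was called. The 95% interval under 5-FU ran from -1.80 to 0.71 for ITGB6 and from -2.04 to 0.42 for ITGA9. Without TQ replicate 3 both were called lower under TQ, at -2.40 for ITGB6 and -2.46 for ITGA9, and without SARB replicate 2 ITGB6 was called lower under SARB (-1.67, edgeR adjusted p = 0.0342). ITGA7 under SARB, at -1.15 ± 0.46 (adjusted p = 0.0521), was called without control replicate 1 (-1.51) or SARB replicate 1 (-1.43).

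**Figure D2:**
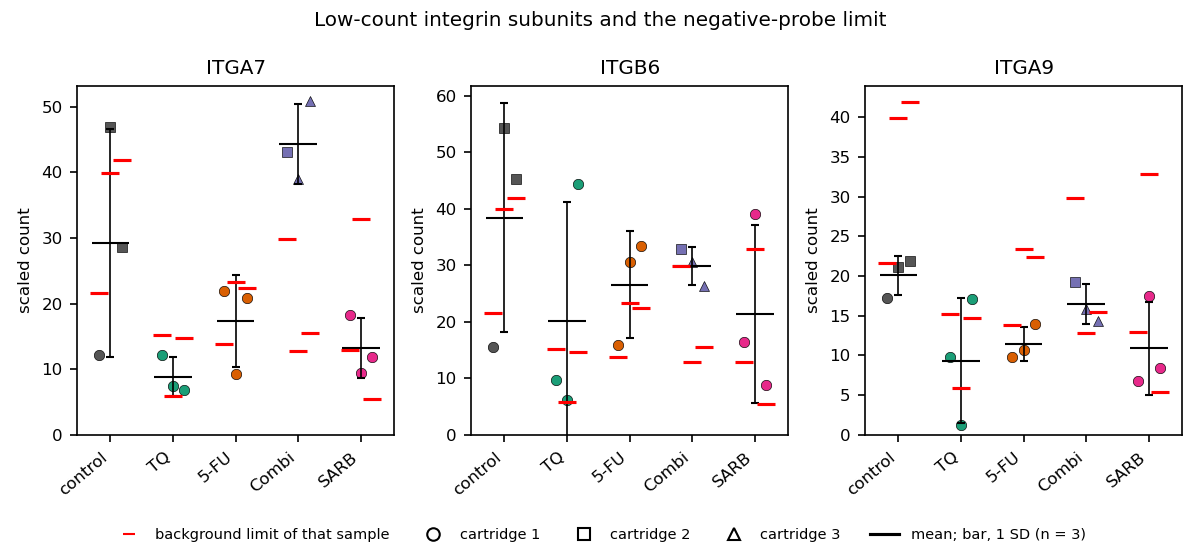
Scaled counts of ITGA7, ITGB6 and ITGA9 by group, with the mean and SD (n = 3), the cartridge as marker shape and, in red, each sample's own background limit. The 3 Combi samples of ITGA7, at 39.0 to 50.9, lie above their limits, while most ITGA9 values lie below.

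Counted over the 8 genes, 4 were called higher and 0 lower under 5-FU, against 10.3% higher and 10.1% lower of all 730 genes. Under Combi 4 were higher and 0 lower, against 13.6% and 6.58%. The same 4 genes, ITGA2, ITGA3, ITGA6 and ITGB4, made up both counts, but the treatments share the 3 control samples. Under SARB 2 were higher (ITGA3 and ITGA6) and 1 lower (ITGB8), against 8.63% and 19.9%. Under TQ 0 were higher and 5 lower (ITGA2, ITGA3, ITGA7, ITGB4 and ITGB8), against 3.42% and 21.6%. The counts of 0 had these unadjusted results: at p under 0.05 edgeR gave 0 lower under 5-FU, 1 lower under Combi (ITGB8) and 0 higher under TQ, and DESeq2 gave the same numbers and called 0. The median log2 fold change of the 8 genes was 0.25 under 5-FU, 0.64 under Combi, -0.27 under SARB and -0.84 under TQ, beside -0.27, -0.10, -0.41 and -0.47 over all genes. The samples of treatment and control did not overlap in 44.1% of all genes under 5-FU, 36.0% under Combi, 42.1% under SARB and 45.6% under TQ, and in 4, 5, 3 and 4 of the 8.

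With housekeeping scaling the median of all genes lay below 0 under each treatment, and calls of lower levels changed with the scaling. With genes of a mean raw count under 20 left out, that median was -0.30 under TQ, -0.11 under 5-FU, -0.010 under Combi and -0.23 under SARB. The parts of scaling and of background in these medians were not tested. After TMM normalization the panel's calls went from 25 higher and 158 lower to 77 and 42 under TQ, from 75 and 74 to 106 and 40 under 5-FU, and from 63 and 145 to 121 and 68 under SARB. None of the 5 integrin calls under TQ stood after TMM or in DESeq2, where ITGB4 had log2 fold changes of -0.46 and -0.42 and ITGA3 of -0.14 and -0.11. Without control replicate 3 the TQ calls of ITGA2 (-0.27), ITGA3 (-0.39) and ITGB4 (-0.57) were lost, and ITGA2 also lost its call without TQ replicate 2 (-0.78). Within cartridge 1 the log2 ratio of TQ to control was -0.51 for ITGA2, -0.41 for ITGA3 and -0.55 for ITGB4. Under SARB both tools called 4 genes higher, with ITGA2 at 0.91 and 0.92 and ITGB4 at 0.67 and 0.69 added to ITGA3 and ITGA6. All 4 calls under 5-FU and all 4 under Combi stood with either tool. A block on cartridge leaves control replicate 1 as the sole reference for TQ, 5-FU and SARB. With it ITGA3, ITGA6 and ITGB4 stayed called higher under 5-FU while ITGA2 (0.87) did not, all 4 stayed called under Combi, and no TQ call stood.

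**Figure D3:**
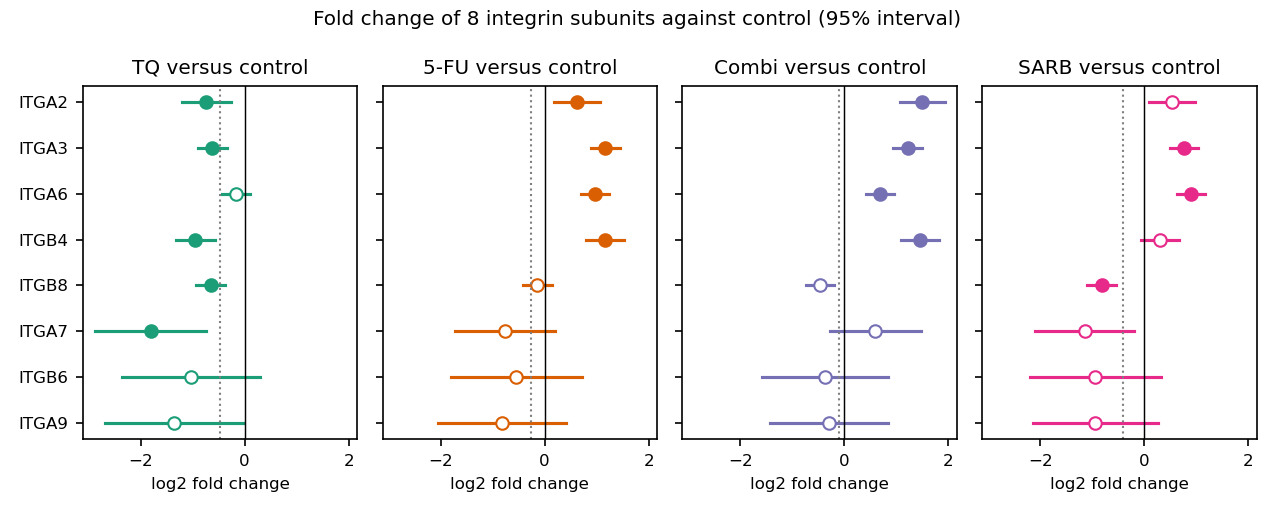
Log2 fold change against control of the 8 integrin subunits with 95% interval, 1 panel per treatment, with filled points for called genes and a dotted line at the median of all 730 genes. ITGA2, ITGA3, ITGA6 and ITGB4 lie to the right of 0 under 5-FU and Combi, and the intervals of ITGA7, ITGB6 and ITGA9 are the widest.

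Shares and ratios within a sample do not depend on scaling between samples. The 8 genes took 0.840% to 1.23% of all endogenous counts in control and 0.764% to 0.846% under TQ. They took 2.31% to 2.39% under 5-FU, 2.27% to 2.69% under Combi and 1.89% to 1.98% under SARB, so that these treatments lay clear of control and TQ. The count of ITGB4 over that of ITGA6 in the same sample was 0.571, 0.824 and 1.33 in control, 1.58, 1.44 and 1.56 under Combi, 1.16, 1.04 and 0.866 under 5-FU, 0.653, 0.507 and 0.598 under SARB, and 0.561, 0.539 and 0.458 under TQ. Combi lay above all other groups in this ratio, and 5-FU lay above SARB and TQ. Combi shared no cartridge with 5-FU, SARB or TQ, so its difference from them cannot be told apart from one between cartridges. On cartridge 2 the only Combi sample had 1.58 and control had 0.824 and 1.33, while control on cartridge 1 had 0.571. The count of ITGA6 over that of ITGB8 was 2.44 to 4.08 in control, 6.75 to 7.01 under Combi, 6.06 to 7.96 under 5-FU, 4.17 to 4.63 under TQ and 9.28 to 11.4 under SARB. Each probe pair has its own efficiency, so these ratios compare samples and not genes, and they were chosen after the values were seen and not tested.

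The hybrid and the mixture were compared at 35 µM of each part. Against Combi, 3 of the 8 genes were lower under SARB (ITGA2, ITGA7 and ITGB4) and 0 were higher, beside 11.4% lower and 0.959% higher of all genes. ITGB4 was 0.447 of its Combi level, a log2 difference of -1.16 ± 0.17 (SE, edgeR adjusted p = 0.000112), and ITGA2 was 0.515 of it, at -0.96 ± 0.20 (0.00218). ITGA7 differed by -1.73 ± 0.43 (adjusted p = 0.00763), and with background subtracted by -2.73 in limma, where it was not called (adjusted p = 0.0793). No SARB sample of these 3 genes reached the lowest Combi sample, and 33.8% of all 730 genes had no overlap between these groups. ITGA3 had a log2 difference of -0.46 (95% interval -0.73 to -0.19), which missed the fold limit. ITGA6 differed by 0.22 (95% interval -0.04 to 0.47) and ITGB8 by -0.35 (-0.62 to -0.08), and neither was called. In edgeR 0 genes were higher at unadjusted p under 0.05, and in DESeq2 1 was (ITGA6, 0.54), also below the fold limit.

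SARB and Combi never shared a cartridge, so their difference cannot be told apart from one between cartridges. With cartridge as a block, where Combi rests on its replicate 1, 0 of the 3 calls remained. The log2 differences were -0.43 for ITGB4, -0.40 for ITGA2 and -0.060 for ITGA7 (edgeR adjusted p = 0.997). Over the panel this block left 0 higher and 1 lower calls for this pair, so the loss was not particular to these genes. After TMM and in DESeq2 all 3 were still called, ITGB4 at -0.90 and -0.82. Over the panel TMM moved the calls of this pair from 7 higher and 83 lower to 39 and 54.

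**Figure D4:**
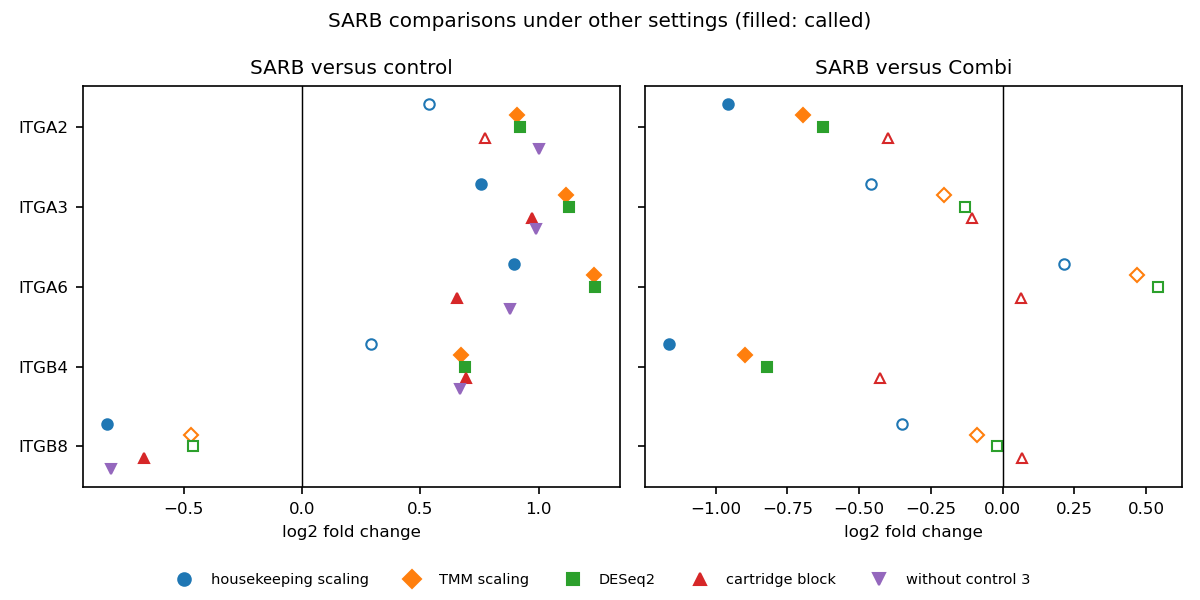
Log2 fold change of 5 integrin subunits under SARB against control (left) and against Combi (right) under different scalings and tools, with cartridge as a block and, on the left, without control replicate 3; filled markers are called. ITGA3 and ITGA6 stay above control in every setting shown. With the cartridge block ITGB4 and ITGA2 are no longer called against Combi, at -0.43 and -0.40.

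The other pairs had unequal doses, and their values stand side by side only. ITGB4 was 2015 ± 73.4 (SD, n = 3) scaled counts at 15 µM 5-FU and 2475 ± 240 in Combi with 35 µM of it, and ITGA2 was 405 ± 31.7 and 734 ± 101. In the fit across all genes, Combi had 2 of the 8 higher than 5-FU (ITGA2 and ITGA7), beside 7.67% of all genes, and ITGA7 lost that call without any 1 of the 6 samples. Combi shared no cartridge with 5-FU or TQ, so these differences cannot be told apart from those between cartridges. With cartridge as a block neither gene was called against 5-FU (0.30 for ITGA2 and -0.33 for ITGA7). Over the panel this block left 1 higher and 0 lower calls for Combi against 5-FU. SARB had 2 lower than 5-FU (ITGB4, -0.86, and ITGB8, -0.69), beside 1.23% of all genes, and both had an edgeR adjusted p of 0.0226 and were not called after TMM. Both calls were also lost without 5-FU replicate 1, 5-FU replicate 2 or SARB replicate 3, and that of ITGB4 without SARB replicate 2 (-0.79). The remaining contrasts were with TQ: 4 of the 8 were higher under SARB (13.7% of all genes), 5 higher under Combi (28.2%) and 4 lower under TQ than under 5-FU (14.5%). ITGA2, ITGA3, ITGA6 and ITGB4 were in each of these counts, which share the TQ samples. For Combi against TQ, ITGA6 (0.85) was not called after TMM (0.48) or in DESeq2 (0.39, adjusted p = 0.0897), and ITGA7 was not called with cartridge as a block (0.73). After TMM the panel's higher and lower calls went from 100 and 41 to 81 and 59 for SARB against TQ, from 206 and 42 to 116 and 95 for Combi against TQ, from 56 and 30 to 41 and 46 for Combi against 5-FU, and from 23 and 106 to 60 and 70 for TQ against 5-FU.

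In order of group means under housekeeping scaling, ITGA3 and ITGB4 ran Combi, 5-FU, SARB, control and TQ, as did ITGA2. ITGA3 did not differ between Combi and 5-FU beyond its spread, with a 95% interval of -0.22 to 0.32 on the log2 scale. ITGB4 between the same groups had an interval of -0.06 to 0.65. ITGA2 between 5-FU and SARB had an interval of -0.32 to 0.52. ITGA6 ran 5-FU, SARB, Combi, control and TQ, and neither step among the first 3 was called. ITGB8 ran control, 5-FU, Combi, TQ and SARB, and no step between neighbours was called. TMM turned some of these steps, with ITGA3 under Combi at -0.057 against 5-FU, ITGA2 under SARB at 0.065 and ITGA6 at 0.083 against 5-FU, ITGB8 under Combi at -0.20 against TQ, ITGA6 under TQ at 0.28 against control and ITGB8 under 5-FU at 0.061 against control.

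The genes of the panel most like each integrin over the 5 group means were found by the root mean square difference of centred log2 values among 513 candidates. For ITGB4 they were ITGA3 (0.25) and ITGA2 (0.28), both among the genes described here. For ITGA2 they were PGF (0.18) and FN1 (0.20), with ITGA3 in position 9, and for ITGA3 they were TGFB3 (0.18) and MAP3K12 (0.19), with ITGB4 in position 8. ITGA6 was nearest to PIK3R2 (0.10) and DUSP8 (0.11), ITGA7 to HDAC11 (0.12) and PLA2G10 (0.23), ITGB6 to BMPR1B and BMP5 (both 0.08) and ITGB8 to GNG4 and FGF7 (both 0.08). The median difference over all candidates was 0.72 for ITGA2 and 0.38 for ITGB8. The same genes came first after TMM normalization, but a scaling shifts all genes of a sample alike, so it could hardly change these differences. ITGA9 was too low to be included.

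Laminin chains, the ligands of ITGA3, ITGA6 and ITGB4, were called higher for 3 of the 6 considered under each of 5-FU, Combi and SARB, and none was called lower there, beside the 10.3%, 13.6% and 8.63% of all genes that were higher. LAMA3 and LAMB3 are chains of the laminin of epithelial anchoring. LAMA3 had log2 fold changes of 3.23 under 5-FU, 2.84 under Combi and 2.60 under SARB, and LAMB3 of 2.91, 2.79 and 2.86. LAMA5, a chain of most mature epithelial basement membranes, stood at 1.54, 1.00 and 1.47. Under TQ, LAMB3 was higher (1.24) and LAMA3 lower (-0.65), and the latter was not called after TMM (-0.15). With cartridge as a block LAMA5 was not called under Combi (0.14). The median of the 6 chains was 1.03 under 5-FU, 0.62 under Combi, 0.80 under SARB and -0.45 under TQ.

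**Figure D5:**
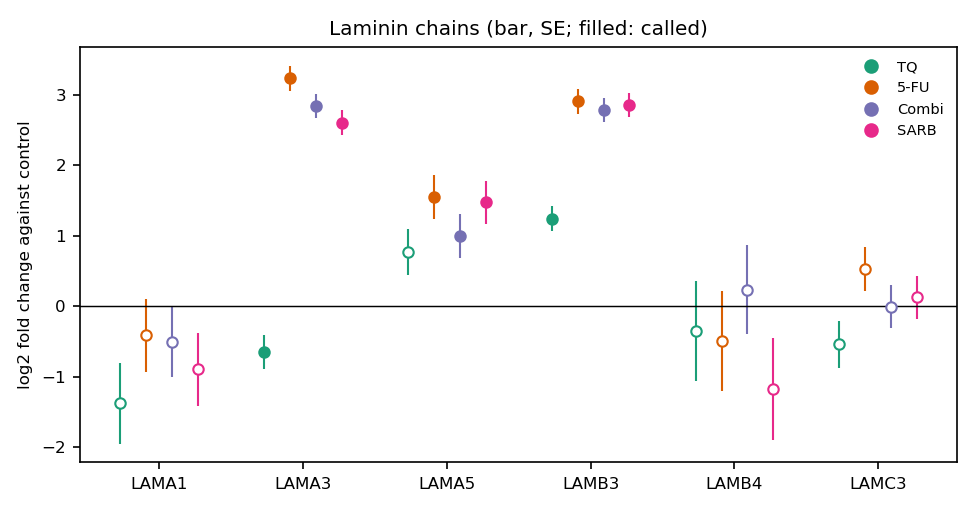
Log2 fold change against control of 6 laminin chain genes under each treatment, with SE as bars and filled points for called genes. LAMA3 and LAMB3 stand between 2.60 and 3.23 under 5-FU, Combi and SARB, while LAMA1, LAMB4 and LAMC3 have no called value.

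Of 26 other matrix ligand genes, 1 was higher and 1 lower under 5-FU, 4 and 0 under Combi, 1 and 4 under SARB, and 1 and 6 under TQ. All genes had 10.3% higher and 10.1% lower under 5-FU, 13.6% and 6.58% under Combi, 8.63% and 19.9% under SARB, and 3.42% and 21.6% under TQ, and only 11 of the 26 had a mean raw count of 20 or more. The thrombospondin gene THBS1 was higher in all of them, at 1.31, 1.64, 1.70 and 2.07. The others under Combi were SPP1, encoding the ITGA9 ligand osteopontin (1.77), the basement membrane collagen COL4A5 (1.51) and fibronectin, FN1 (1.04). COL4A5 (-1.25) and FN1 (-1.11) were also among the 6 called lower under TQ with housekeeping scaling. The remaining lower genes under TQ and those under 5-FU and SARB are not named here. Of the 3 TGF-beta genes, whose latent products ITGB6 and ITGB8 receptors act on, TGFB1 was higher under Combi (0.99) and SARB (0.77), and TGFB2 lower under TQ (-1.14). Of 15 adhesion signalling genes, 3 were higher under each of 5-FU, Combi and SARB: the GTPase RAC2 (1.28, 1.06 and 1.10), the actin crosslinker FLNC (0.92, 1.64 and 1.08) and the adaptor SHC1 (0.81, 0.67 and 0.64). Lower calls numbered 2 under TQ, 1 under 5-FU, 0 under Combi and 3 under SARB. The kinase MAPK3 was lower under TQ (-1.39), 5-FU (-0.71) and SARB (-1.12). The other integrin genes on the panel, ITGA8, ITGB3 and ITGB7, were above background in 2, 0 and 3 of 15 samples. All 3 were called lower under TQ, at -2.01, -2.49 and -2.19, and ITGA8 also under SARB, at -1.57. None of these calls stood with background subtracted.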

How the data were processed

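Expression of 730 endogenous genes was measured with the NanoString nCounter PanCancer Pathways panel in 15 samples of HCT116 cells. The authors deposited raw probe counts, normalized values and their own fold changes with p-values. Only the raw counts were used here. They are whole numbers per probe, not amplified and not normalized. The study normalized to the geometric mean of housekeeping genes in nSolver; here the raw counts were scaled to 40 housekeeping genes as library sizes. All 5 groups entered 1 quasi-likelihood fit (edgeR 4.0.16, R 4.3.3, robust, no covariate), and p-values were adjusted over 730 genes by Benjamini-Hochberg. The thresholds were an adjusted p of 0.05 and a fold of 1.5. The script was tested on simulated data. Intervals are 95% t intervals of the fit. No genome alignment was involved, and the files name no genome build.

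Alternatives were TMM, DESeq2 1.42.0, a limit of a mean of 20 raw counts, background subtraction with limma 3.58.1, counts under 20 set to 20, cartridge or replicate number as a block, and leaving out each sample. Totals of 135017 to 607782 counts per sample limit precision mainly for ITGA7, ITGA9 and ITGB6, whose raw means were 24.2, 12.5 and 24.5. No pair of replicates agreed within sampling noise (chi-square per degree of freedom 1.56 to 14.8). All 8 integrin genes are named, and from each list at most 4 called genes, not always those with the largest change against control. All 8 symbols matched the RefSeq gene table, and 7 of the 8 probe transcript identifiers were listed there, that of ITGA3 not among them. Members and lists were chosen with earlier results of these data known. Of the laminin list 1 gene is not reported here.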

Additional observations from a re-analysis of the deposited data

How the results depend on the processing

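All 4 higher calls under 5-FU and all 4 under Combi stood under TMM, DESeq2, background subtraction and counts set to 20. The cartridge block left 3 under 5-FU and 4 under Combi, and leaving out 1 sample 3 to 4 for each. Those under TQ, 5 lower, became 0 after TMM, 0 in DESeq2 and 0 with the cartridge block, and 2 to 7 without 1 sample, 2 without control replicate 3. Under SARB the 2 higher became 4 after TMM, 4 in DESeq2, 3 with background subtracted, 3 with the cartridge block and 2 to 4 without 1 sample; the 1 lower became 0 and 0, 2 with low-count genes left out, and 1 to 2. With the cartridge block 1 gene was lower under Combi (ITGB8) and 0 were lower under SARB than Combi, which no left-out sample changed from 3. SARB against 5-FU went from 2 lower to 0 after TMM, 0 in DESeq2 and 0 to 2 without 1 sample. Combi against 5-FU went from 2 higher to 1 with background subtracted, 1 with counts set to 20, 0 with the cartridge block and 1 with the replicate block, and 1 to 2 without 1 sample. Combi against TQ had 5 higher, 4 after TMM, in DESeq2, with counts set to 20 and with the cartridge block, and 5 to 7 without 1 sample. Causes were not tested, though a block on cartridge leaves fewer control samples.

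Of the genes' values against control, SARB against Combi and the calls between other treatments, 16 turned sign, of which only ITGA7 for Combi against 5-FU was called before. Uncalled differences between other treatments turned too and are not all listed. After TMM and in DESeq2, ITGA6 under TQ was 0.28 and 0.31 and ITGB8 under 5-FU 0.061 and 0.072. With the cartridge block, ITGB6 was 0.27 under TQ, 0.76 under 5-FU, 0.36 under SARB and 0.96 for SARB against Combi; ITGA7 was 0.52 under 5-FU, 0.13 under SARB and -0.33 for Combi against 5-FU; ITGB8 was 0.018 under 5-FU and 0.066 for SARB against Combi. With background subtracted, ITGA9 (0.29) and ITGB6 (0.13) turned under Combi, and with counts set to 20 ITGA9 (0.046) for SARB against Combi. Same-numbered samples of different groups were not treated as paired. The correlation of their deviations ran from -0.67 to 0.39 (median -0.04, 30 pairs), beside a median of 0.002 for other-numbered samples. With 3 samples per group and uneven depth and cartridges, this check cannot exclude pairing. The replicate block changed no other count.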
